A study of Mus musculus with 6 samples.

Results

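Rab GTPases and SNARE proteins are the switches and the fusion machinery of vesicle traffic, and their transcripts were followed here in 3T3-L1 adipocytes and preadipocytes. 3T3-L1 is a clonal mouse embryonic fibroblast line that can be turned into fat cells in culture, so both groups come from a single line. Members were the protein-coding genes of GENCODE M21 whose symbols belong to the numbered Rab, Vamp, Stx and Stxbp series, together with Snap23, Snap25, Snap29 and Snap47. There were 92 of them among the 54752 genes in each table: 59 Rab, 15 Stx, 7 Vamp, 4 Snap and 7 Stxbp genes. RNA-seq gave 3 adipocyte and 3 preadipocyte libraries, numbered 1 to 3 in each group, with 22496486 to 26314076 estimated counts each. The labels give the same strain (C57BL/6J), tissue (Embryo), medium (10% BCS media, DMI, 10% FBS) and treatment (none) for all 6 libraries, and the source name reads Adipocyte for all of them, so libraries were grouped by title and cell type label. The labels do not state the harvest day, the RNA selection or the strandedness. No label says that the libraries of a group are separate cultures, and the p-values therefore measure the spread among these libraries, which could be technical variation.

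A Rab protein cycles between a GDP-bound form held in the cytosol and a GTP-bound form on a membrane, where it recruits motors, tethers and other effectors. Exchange factors load GTP, GTPase-activating proteins end the signal, and a lipid anchor added by geranylgeranyl transferase holds the Rab on its membrane. Fusion is then driven by SNAREs: an R-SNARE such as a VAMP on the vesicle pairs with a syntaxin and a SNAP-25-type protein on the target, under the control of Sec1/Munc18 proteins, which are encoded in part by Stxbp genes. Adipocytes are known for the insulin-driven delivery of the glucose transporter GLUT4 to the cell surface by such vesicles, for the secretion of adiponectin and leptin, and for lipid droplets, which carry Rabs on their surface.

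The labelled cell types showed their markers. All 6 adipocyte markers were higher in adipocytes, with a summed level of 16183 to 19490 CPM in the adipocyte libraries and 69.1 to 72.6 CPM in the preadipocyte libraries, where CPM is the counts-per-million value on library sizes scaled by the TMM method of edgeR. All 5 preadipocyte and fibroblast markers were lower in adipocytes, and their sum was 1662 to 2130 CPM in adipocytes against 22610 to 25749 CPM in preadipocytes. The macrophage list summed to 0.952 to 1.68 CPM in adipocytes and 1.86 to 2.40 CPM in preadipocytes, and the endothelial list to 0.280 to 0.692 CPM in adipocytes and 0.545 to 0.909 CPM in preadipocytes. The skeletal muscle list summed to 1.12 to 1.95 CPM in adipocytes and 0.0395 to 0.157 CPM in preadipocytes, and the epithelial list to 0.432 to 1.30 CPM in adipocytes and 0 to 0.474 CPM in preadipocytes. In bulk RNA, fewer cells of a type and less RNA per cell cannot be told apart.

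Of the 92 members, 76 had enough counts to be tested, and 60 of these passed the edgeR quasi-likelihood test at an adjusted p under 0.05, with p-values adjusted over all 14726 genes tested. That is 78.9% of the tested members, beside 73.5% of all genes tested. In adipocytes 27 members were higher (35.5%, beside 35.7% of all genes) and 33 were lower (43.4%, beside 37.9%). A change of at least 2-fold was found for 9 higher members (11.8%, beside 19.3%) and 18 lower members (23.7%, beside 21.8%). The CPM of the groups did not overlap for 61 members (80.3%, beside 76.5%), and the median log2 fold change of adipocytes over preadipocytes was -0.02, beside -0.06 for all genes. By family, 18 Rab genes were higher and 22 were lower among 47 tested, 2 Vamp genes were higher and 2 lower among 6, 5 Stx genes were higher and 5 lower among 14, 1 Snap gene was higher and none lower among 4, and 1 Stxbp gene was higher and 4 lower among 5. The share called higher was close to that of all genes and the share called lower was somewhat above it.

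The split between higher and lower calls depended on how the libraries were scaled. With total counts in place of TMM, 15 members were higher (19.7%, beside 26.6% of all genes) and 43 lower (56.6%, beside 50.8%). With limma on log2(TPM + 1), where TPM is the transcripts-per-million value, 11 were higher (14.5%, beside 22.2%) and 44 lower (57.9%, beside 56.6%). With upper-quartile factors 23 were higher (30.3%, beside 31.7%) and 35 lower (46.1%, beside 43.1%). All genes thus shifted with the members, and the median of all genes moved by -0.33 with total counts, -0.48 with TPM and -0.13 with upper-quartile factors on the log2 scale. A total of 11 higher and 28 lower calls held under all 14 alternatives tried, and 16 higher and 5 lower calls did not. The same count was not made over all genes. Because these scalings move all genes downward, the counts do not show that falls of members were sturdier than rises. The summed level of all members shows the same dependence: it was 4864 to 4961 CPM in adipocytes and 4443 to 4499 CPM in preadipocytes, whereas the summed TPM was 3394 ± 99.96 in adipocytes and 4319 ± 34.4 in preadipocytes (SD, n = 3 each).

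**Figure D1:**
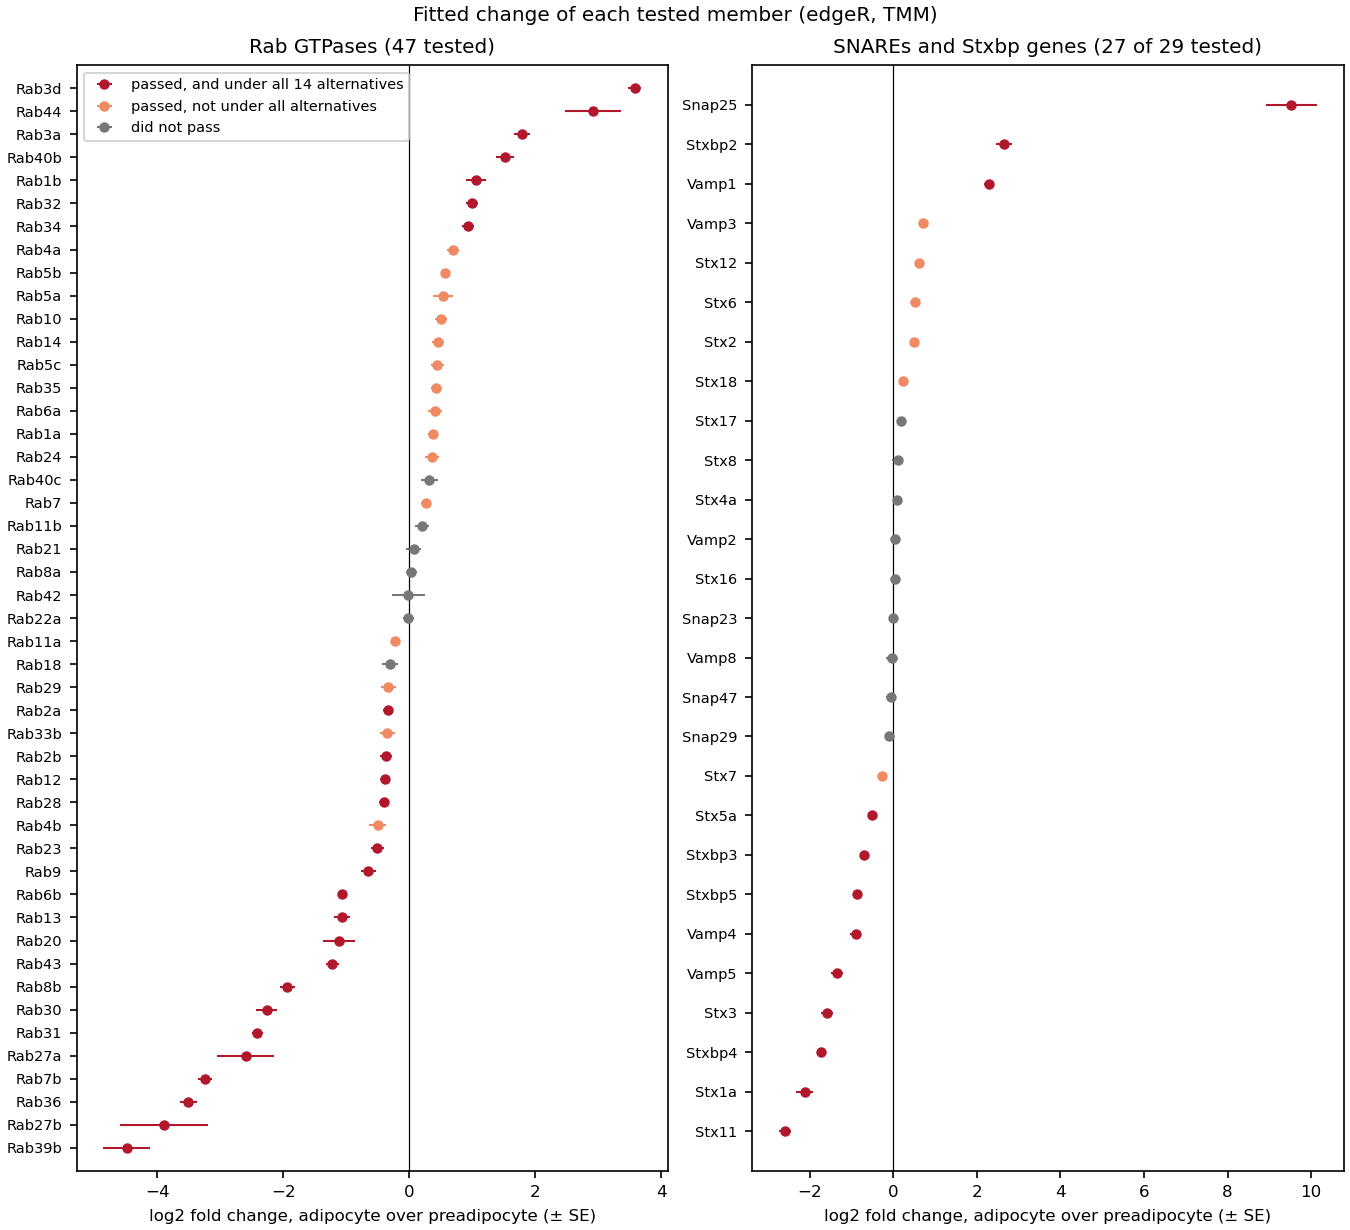
Fitted log2 fold change, adipocyte over preadipocyte, with its standard error (horizontal axis) for 74 of the 76 tested members, ordered by value, with Rab genes on the left and SNARE and Stxbp genes on the right. Dark red points passed the test under TMM scaling and all 14 alternatives, orange points passed but not under all of them (several change sign with total counts or TPM), and grey points did not pass. Apart from Snap25, the changes run from -4.49 for Rab39b to 3.58 for Rab3d; the position of Snap25 depends on the prior count because it had no counts in preadipocytes.

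Regulated exocytosis, best known from neurons and secretory cells, had members among both the largest rises and the largest falls. The plot of CPM by library draws 10 of them, which were chosen after their values were seen and leave out members of the same machinery without a call, such as Vamp2, Snap23 and Stx4a. Of the 10, Snap25, Rab3d, Stxbp2, Vamp1 and Rab3a rose, and Stx1a, Stx3, Stx11, Rab27a and Rab27b fell. Each of these 10 calls held under all 14 alternatives. Of the 6 tested Rabs listed for exocytosis and the cell surface, 3 were higher and 2 lower, with a median log2 fold change of 0.27. That is 83.3% called, beside 73.5% of all genes tested.

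Snap25, the plasma membrane SNARE of synapses and endocrine cells (gene ENSMUSG00000027273.13, chr2:136713453-136782428, GRCm38), had 3.55, 2.99 and 4.80 CPM in the adipocyte libraries, from 82, 64 and 111 counts, and 0 counts in every preadipocyte library. Against a floor of 3 counts over the 3 preadipocyte libraries it was at least 99.3-fold higher in adipocytes. Stx1a, a syntaxin of the presynaptic plasma membrane, fell, with 2.20, 1.59 and 1.30 CPM in adipocytes against 8.38, 6.91 and 6.86 CPM in preadipocytes, a log2 fold change of -2.12 (SE 0.20, edgeR adjusted p = 1.5e-05). The groups did not overlap for either gene.

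The neuron marker list summed to 4.16 to 6.23 CPM in adipocytes and 20.4 to 22.7 CPM in preadipocytes, and 3 of its 6 genes had enough counts to be tested. Snap25 is itself one of them, and the other two, the dendritic protein gene Map2 and the synaptic vesicle gene Syn1, were lower in adipocytes, with log2 fold changes of -5.34 and -1.15. Rbfox3, which marks neuronal nuclei, had no counts in any library, and Syt1, the calcium sensor of synaptic vesicles, had 1 in all. The summed neuron level was lower in adipocytes, although the sum includes Snap25 itself, at 3.55, 2.99 and 4.80 CPM there. The source of the Snap25 transcripts was not tested.

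Rab3 proteins sit on secretory vesicles, and Rab3d is the form known from exocrine glands and fat cells. Rab3d had 73.8, 62.3 and 62.9 CPM in adipocytes against 5.75, 5.29 and 5.55 CPM in preadipocytes, a log2 fold change of 3.58 (SE 0.10, edgeR adjusted p = 9.23e-09). Rab3a, the neuronal form, had 44.7, 37.3 and 35.4 CPM in adipocytes against 12.7, 10.6 and 10.7 CPM in preadipocytes, a log2 fold change of 1.79 (SE 0.12). Every adipocyte library was thus above every preadipocyte library for both. In TPM, which corrects for transcript length, Rab3a remained the more abundant of the pair: it made up 63.3 ± 1.33% of Rab3 TPM in adipocytes and 82.8 ± 0.834% in preadipocytes, and Rab3d made up 36.3 ± 1.23% in adipocytes and 16.1 ± 1.36% in preadipocytes (SD, n = 3 each). The summed Rab3 level was 67.7 ± 7.96 TPM in adipocytes against 21.1 ± 1.52 TPM in preadipocytes.

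The Munc18 proteins clasp syntaxins and are needed for fusion. Stxbp2, the Munc18-2 gene known from epithelia, mast cells and cytotoxic lymphocytes, had 25.2, 15.8 and 18.9 CPM in adipocytes against 3.52, 2.69 and 3.34 CPM in preadipocytes, a log2 fold change of 2.65 (SE 0.20, edgeR adjusted p = 2.78e-06). Stxbp3 encodes Munc18c, the partner of syntaxin 4 in GLUT4 vesicle fusion, and had 25.2, 26.1 and 30.2 CPM in adipocytes against 41.2, 47.01 and 44.7 CPM in preadipocytes, a log2 fold change of -0.71 (SE 0.10). The groups did not overlap for either gene. Per length, Stxbp2 averaged 19.7 ± 3.78 TPM in adipocytes against 3.02 ± 0.461 TPM in preadipocytes (SD, n = 3 each). The estimated transcript of Stxbp2 was also shorter in adipocytes, with a mean length of 1488, 1412 and 1473 bases against 2225, 2124 and 1968 bases in preadipocytes.

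Vamp1, a synaptic vesicle R-SNARE, had 44.1, 47.3 and 54.3 CPM in adipocytes against 10.3, 9.88 and 9.80 CPM in preadipocytes, a log2 fold change of 2.28 (SE 0.10, edgeR adjusted p = 9.58e-08). Among Vamp1, Vamp2 and Vamp3 it made up 12.02 ± 1.40% of TPM in adipocytes and 3.02 ± 0.0947% in preadipocytes (SD, n = 3 each), so it remained the least abundant of the 3. Stx3, an apical plasma membrane syntaxin, had 3.07, 4.53 and 4.15 CPM in adipocytes against 12.5, 11.5 and 11.3 CPM in preadipocytes. Stx11, a partner of Munc18-2 in the granule release of lymphocytes, had 1.56, 1.68 and 1.25 CPM in adipocytes against 9.04, 8.85 and 9.18 CPM in preadipocytes. Their log2 fold changes were -1.59 (SE 0.15) and -2.59 (SE 0.15). Stx11 thus moved opposite to Stxbp2.

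Rab27a and Rab27b dock secretory granules and exosome-bearing endosomes, and both were near the limit of detection. Rab27a had 0.130, 0.0467 and 0.0865 CPM in adipocytes against 0.548, 0.711 and 0.436 CPM in preadipocytes. Rab27b had 2 counts over the adipocyte libraries against 40 over the preadipocyte libraries, 17.3-fold lower in adipocytes per library size (95% interval 4.78 to 142, counting error only). Stxbp4 (synip), a regulator of syntaxin 4, and Stxbp5 (tomosyn), an inhibitor of SNARE assembly, fell as well, with log2 fold changes of -1.73 (SE 0.11) and -0.87 (SE 0.09).

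**Figure D2:**
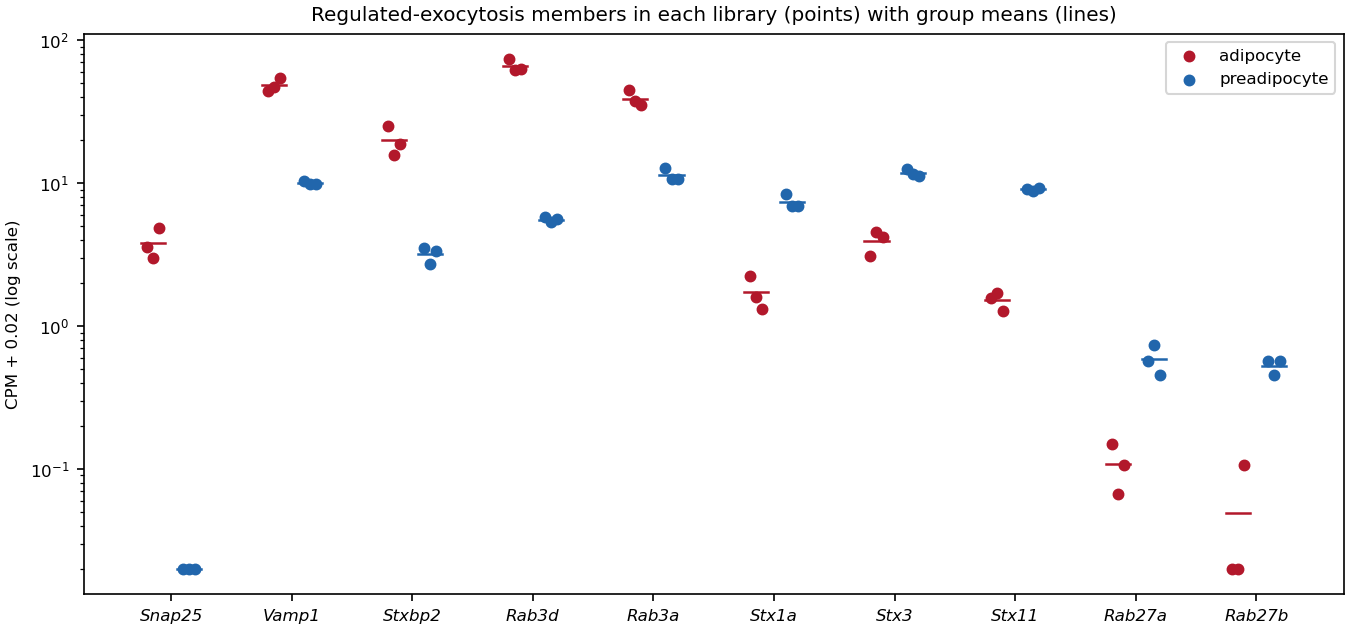
CPM plus 0.02 on a log axis for 10 members of the regulated exocytosis machinery chosen for their changes, with adipocyte libraries in red on the left of each gene and preadipocyte libraries in blue on the right. Points are the 3 libraries of a group and short lines the group means; no gene overlaps between groups, and Snap25 stands at the bottom of the axis in preadipocytes because it had 0 counts there.

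**Figure D3:**
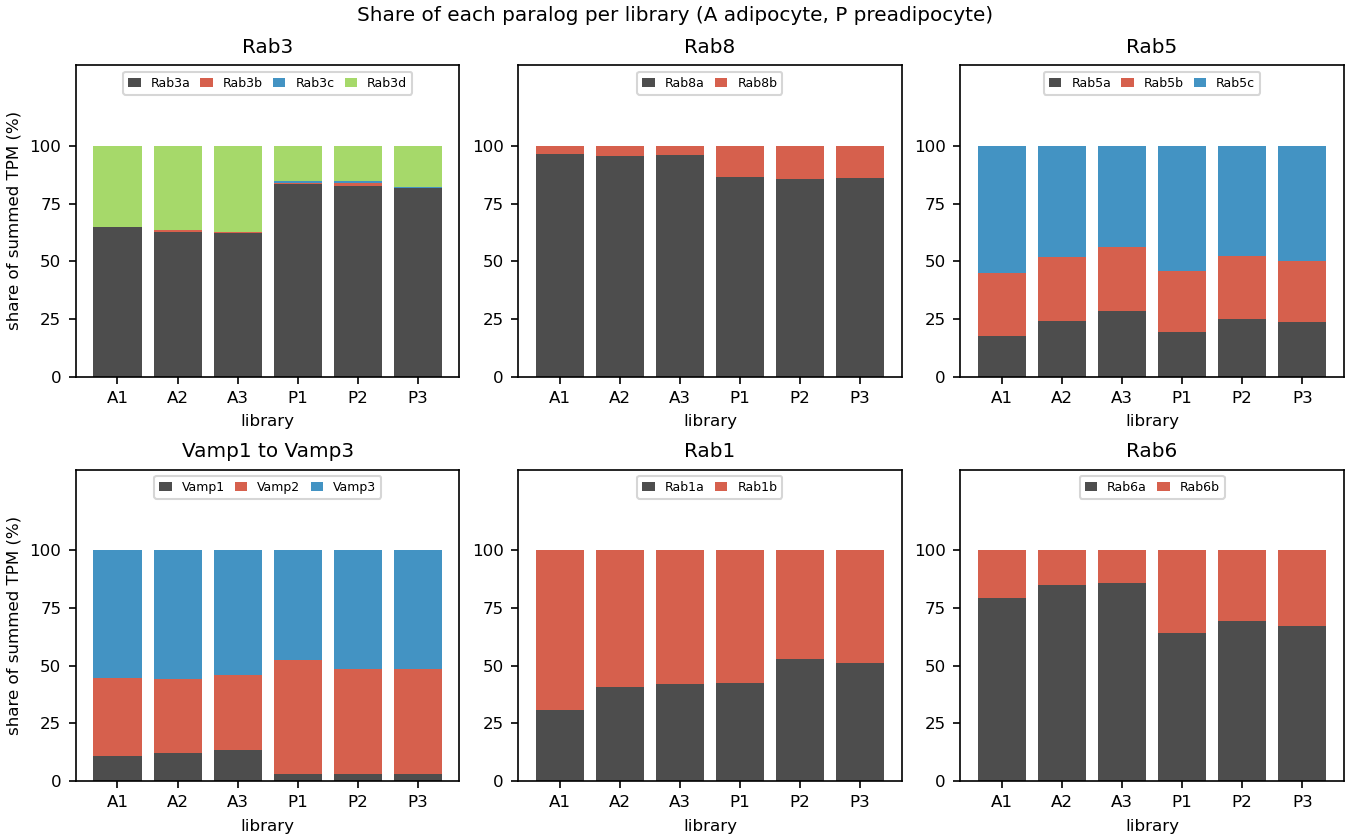
Share of each paralog in the summed TPM of its set (vertical axis, percent) in each library, with adipocyte libraries A1 to A3 left of preadipocyte libraries P1 to P3. The Rab3d share of the Rab3 set is 36.3% in adipocytes against 16.1% in preadipocytes, the Rab6b share of the Rab6 pair is 16.6% in adipocytes against 33.2% in preadipocytes, and the Rab5 shares differ little between groups.

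The 250 bases before the start site are shown for the 3 largest rises and 3 largest falls among members that reached 1 CPM and have a single promoter entry, to set the sequence at these genes beside their opposite changes. They are RefSeq sequences of GRCm38.p6, written 5′ to 3′ on the strand of the gene, and capitals mark a match to a searched motif.
Rab3d, chr9:21918184-21918433, minus strand: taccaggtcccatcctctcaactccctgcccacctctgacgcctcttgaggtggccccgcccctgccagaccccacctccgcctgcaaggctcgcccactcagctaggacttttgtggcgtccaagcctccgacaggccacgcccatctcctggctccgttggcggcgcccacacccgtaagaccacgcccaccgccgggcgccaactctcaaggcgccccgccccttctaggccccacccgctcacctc
Stxbp2, chr8:3630859-3631108, plus strand: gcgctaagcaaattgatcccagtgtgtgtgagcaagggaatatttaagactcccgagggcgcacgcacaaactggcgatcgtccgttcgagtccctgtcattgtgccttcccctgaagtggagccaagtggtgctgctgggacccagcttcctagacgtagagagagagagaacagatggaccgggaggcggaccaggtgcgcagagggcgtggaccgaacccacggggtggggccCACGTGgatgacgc
Vamp1, chr6:125215331-125215580, plus strand: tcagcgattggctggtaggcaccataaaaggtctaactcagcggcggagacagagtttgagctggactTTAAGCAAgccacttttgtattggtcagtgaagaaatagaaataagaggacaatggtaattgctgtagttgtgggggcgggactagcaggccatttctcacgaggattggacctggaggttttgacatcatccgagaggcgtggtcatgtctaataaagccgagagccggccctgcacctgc
Rab39b, chrX:75578232-75578481, minus strand: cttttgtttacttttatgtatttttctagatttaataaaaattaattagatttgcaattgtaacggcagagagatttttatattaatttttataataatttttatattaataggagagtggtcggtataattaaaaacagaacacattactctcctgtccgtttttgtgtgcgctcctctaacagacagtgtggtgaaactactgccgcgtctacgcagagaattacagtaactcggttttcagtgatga
Stx11, chr10:12964260-12964509, minus strand: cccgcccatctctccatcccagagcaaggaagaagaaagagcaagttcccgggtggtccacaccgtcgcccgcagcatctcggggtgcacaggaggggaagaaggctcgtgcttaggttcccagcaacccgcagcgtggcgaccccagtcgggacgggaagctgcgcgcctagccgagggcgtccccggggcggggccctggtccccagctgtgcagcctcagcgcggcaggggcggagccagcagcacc
Rab31, chr17:65772753-65773002, minus strand: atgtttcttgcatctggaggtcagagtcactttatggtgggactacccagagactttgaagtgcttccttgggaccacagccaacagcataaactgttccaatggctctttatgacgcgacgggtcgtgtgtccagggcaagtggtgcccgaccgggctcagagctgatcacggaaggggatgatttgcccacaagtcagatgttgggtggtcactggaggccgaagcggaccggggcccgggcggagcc

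Motifs were searched on both strands, with no overlap between them in these 6 windows: TTGCNNAA for the C/EBP family, CACGTG for E-box factors, GGAATG for TEAD factors, and a direct repeat of AGGNCA with 1 base between the repeats for PPAR:RXR. Stxbp2 holds a CACGTG, starting 14 bases before the RefSeq start site, and Vamp1 a C/EBP core, starting 182 bases before it. The other 4 windows hold no match. In GENCODE M21 the Stxbp2 gene starts at chr8:3630955, inside its window, so by that annotation the CACGTG lies within the gene. The windows of Rab3d, Vamp1 and Stx11 also reach into the GENCODE gene. Among all 32851 promoters of the table, 9.56% hold the C/EBP core, 6.02% the E-box, 12.6% the TEAD motif and 0.338% the PPAR:RXR motif. Of the 76 tested members 63 have an entry in the table and 51 exactly 1. Among these 51, the C/EBP core was found in 3 of 18 higher members, 1 of 20 lower members and 2 of 13 without a call. The E-box was found in 3, 1 and 1 of these, the TEAD motif in 2, 3 and 5, and the PPAR:RXR motif in none. The median GC content was 62.0% for higher members, 64.2% for lower members and 61.6% for those without a call, against 52.4% for all promoters. The member promoters are limited to tested genes with a single entry and the full set is not, so the 2 sets are unlike. Rab39b stands apart from the printed set, with 31.6% GC. A match is a description of these letters and not evidence of binding.

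GLUT4 traffic uses many Rabs and SNAREs. Of the members named for a role in GLUT4 traffic, Rab3d alone was called at least 2-fold higher. The transcripts of Slc2a4 and Sort1 were higher by far more than that, but not all of the cargo and regulator list rose. Lnpep had no call (log2 fold change -0.06, edgeR adjusted p = 0.808) and Lrp1 was lower (-1.92). In that list 9 of 18 tested genes were higher and 2 lower. Slc2a4, which encodes GLUT4, had 506, 451 and 474 CPM in adipocytes against 0.0391, 0 and 0 CPM in preadipocytes, and Sort1, the sorting receptor of its storage vesicles, had 632, 684 and 621 CPM in adipocytes against 12.6, 13.0 and 12.8 CPM in preadipocytes.

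Rab10, the Rab that brings GLUT4 vesicles to the surface of adipocytes, had 167, 193 and 195 CPM in adipocytes against 116, 139 and 136 CPM in preadipocytes. Its log2 fold change was 0.50 with TMM (SE 0.10, edgeR adjusted p = 0.0015), 0.18 with total counts (adjusted p = 0.157) and -0.02 on log2(TPM + 1) (limma adjusted p = 0.898), so the call was lost with total counts and TPM. Rab14, which sorts GLUT4 from endosomes, had 259, 301 and 301 CPM in adipocytes against 189, 220 and 216 CPM in preadipocytes, a log2 fold change of 0.46 with TMM, 0.13 with total counts and 0.02 on log2(TPM + 1). Vamp3 (cellubrevin), an R-SNARE of recycling endosomes, had 107, 112 and 108 CPM in adipocytes against 65.8, 67.2 and 66.0 CPM in preadipocytes, a log2 fold change of 0.72 with TMM (SE 0.07), 0.39 with total counts and 0.16 on log2(TPM + 1), where it had no call. The groups did not overlap in CPM for any of these 3 genes.

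The core fusion set of the GLUT4 vesicle did not pass the test. Vamp2, its main R-SNARE, had 60.7, 59.3 and 56.4 CPM in adipocytes against 63.2, 55.8 and 53.7 CPM in preadipocytes. Stx4a (syntaxin 4), its plasma membrane partner, had 75.5, 67.5 and 67.6 CPM in adipocytes against 74.8, 60.8 and 62.5 CPM in preadipocytes. Snap23, the SNAP-25-type protein of non-neuronal cells, had 40.9, 49.0 and 49.4 CPM in adipocytes against 45.4, 49.5 and 44.5 CPM in preadipocytes. The groups overlapped for all 3, and with total counts or TPM all 3 were called lower, at -0.30, -0.24 and -0.33 with total counts and at -0.48, -0.46 and -0.65 on log2(TPM + 1). Rab8a, a Rab10 relative that acts on GLUT4 in muscle cells, was alike, with 85.3, 76.0 and 71.8 CPM in adipocytes against 78.5, 76.6 and 72.6 CPM in preadipocytes, no call with TMM and -0.29 with total counts. Vamp8, an R-SNARE of endosomes and lysosomes, had 50.2, 38.3 and 38.0 CPM in adipocytes against 50.1, 38.4 and 41.3 CPM in preadipocytes and no call with TMM, against -0.37 with total counts. Stx16, of the trans-Golgi network, had a log2 fold change of 0.03 (edgeR adjusted p = 0.753), which turned to -0.30 with total counts.

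Rab13, which acts on GLUT4 in muscle cells and at tight junctions, fell, with 12.1, 9.81 and 9.21 CPM in adipocytes against 23.9, 20.9 and 20.6 CPM in preadipocytes, a log2 fold change of -1.07 (SE 0.13). Rab8b fell as well, by 1.94 on the log2 scale (SE 0.12), with 8.99, 10.9 and 9.43 CPM in adipocytes against 33.3, 41.0 and 37.9 CPM in preadipocytes. By TPM it made up 4.02 ± 0.472% of the Rab8 pair in adipocytes and 13.98 ± 0.449% in preadipocytes (SD, n = 3 each). Vamp5, a muscle-enriched VAMP, fell by 1.34 (SE 0.15) and Vamp4, of the trans-Golgi network, by 0.90 (SE 0.14), and these calls for Rab13, Rab8b, Vamp5 and Vamp4 held under all 14 alternatives. Vamp5 lies 4754 bases from Vamp8 on chromosome 6, and Vamp8 had no call with TMM.

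**Figure D4:**
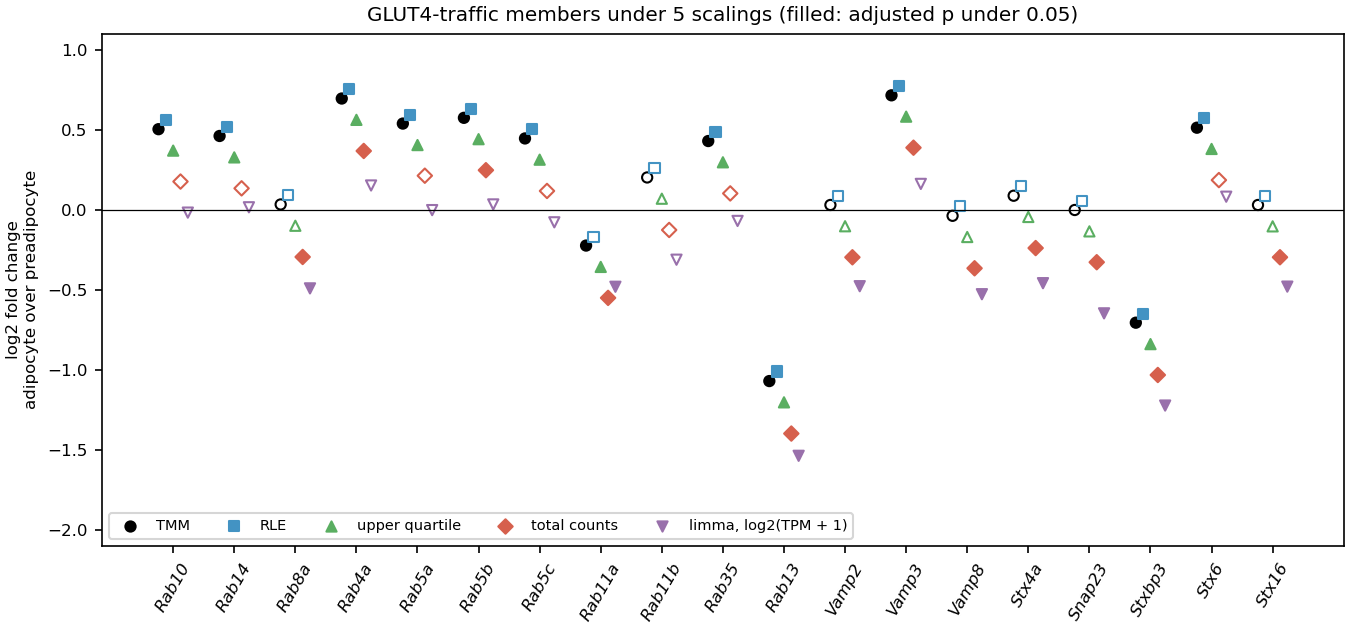
Log2 fold change, adipocyte over preadipocyte (vertical axis), of 19 of the members with roles in GLUT4 traffic under 5 scalings, where filled symbols have an adjusted p under 0.05. Others named for such roles, among them Rab3d, Rab4b, Vamp4 and Vamp5, are not drawn. Values are lower with total counts and with TPM than with TMM or RLE: Rab10 stands at 0.50 with TMM, 0.18 with total counts and -0.02 with TPM, while Rab13 and Stxbp3 stay lower in adipocytes under all 5.

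Among early and recycling endosome Rabs, 6 of 12 tested were higher and 3 were lower, with a median log2 fold change of 0.32. Without adipocyte library 2, the lower calls numbered 1. The Rab5 genes, which direct fusion of early endosomes, were higher together: Rab5a by 0.54 (SE 0.16), Rab5b by 0.57 (SE 0.07) and Rab5c by 0.45 (SE 0.10). Rab4a, of fast recycling, was higher by 0.70 (SE 0.09) and Rab35, of recycling from the plasma membrane, by 0.43 (SE 0.08). With limma on log2(TPM + 1) none of the 12 was called higher, beside 22.2% of all genes. Rab5a, Rab5c and Rab35 then had values of -0.0019, -0.078 and -0.070. Rab4b and Rab11a were lower, by 0.50 (SE 0.13) and 0.22 (SE 0.07) on the log2 scale, and neither call held under all alternatives. Rab4b shares 62.7% of its 31-base words with an overlapping gene model, so its reads are shared in part with that gene and its value is uncertain. Rab31, which acts between the trans-Golgi network and endosomes, had the deepest fall of the list, with 17.4, 16.6 and 14.4 CPM in adipocytes against 85.7, 87.7 and 84.0 CPM in preadipocytes, a log2 fold change of -2.41 (SE 0.09, edgeR adjusted p = 3.68e-08). Rab21 (0.07), Rab22a (-0.02) and Rab11b (0.20) did not pass. Rab11b was called higher with a replicate block (log2 fold change 0.20, edgeR adjusted p = 0.00376) and without adipocyte library 3. The transcripts of Rab22a were shorter in adipocytes, at 4737, 5007 and 4975 bases against 6652, 6698 and 6314 bases in preadipocytes. Together with Stxbp2 and Stx17 it was 1 of 3 members whose mean length was at least 25% greater in one group with no overlap. That is 4.23% of the 71 members with at least 10 counts in every library, beside 2.49% of all genes.

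All 9 tested Rabs of late endosomes, lysosomes and related organelles passed, beside 73.5% of all genes tested. Of these 9, 3 were higher and 6 lower, with a median log2 fold change of -0.65. Among all genes 35.7% were higher and 37.9% lower. The higher calls numbered 1 without preadipocyte library 2 or 3 and also 1 with TPM, total counts or upper-quartile factors. Rab7, the Rab of late endosomes and lysosomes, was the most abundant member in both groups, at 401 ± 75.4 TPM in adipocytes and 455 ± 40.0 TPM in preadipocytes (SD, n = 3 each). In CPM it was higher in adipocytes by 0.27 on the log2 scale (SE 0.08). The sign turned with total counts (-0.06) and TPM (-0.19), with no call under either. Of its 31-base words 18.4% occur in other genes, chiefly a pseudogene. Its relative Rab7b, which acts in transport from late endosomes to the Golgi, had 2.42, 2.71 and 2.68 CPM in adipocytes against 25.5, 24.2 and 24.2 CPM in preadipocytes, a log2 fold change of -3.24 (SE 0.11, edgeR adjusted p = 1.73e-08). Rab32, of lysosome-related organelles and mitochondria, was the only one of the 3 higher genes whose call held under all 14 alternatives, with 24.6, 27.8 and 24.2 CPM in adipocytes against 12.5, 12.8 and 13.1 CPM in preadipocytes. Rab9 (-0.65), which returns receptors from late endosomes to the Golgi, and Rab20 (-1.12), of endosomes and phagosomes and with 24.01% of its words shared with a gene on the opposite strand, fell. Rab29 (-0.33), of lysosomes and the trans-Golgi network, was lower too, but its call was lost with RLE factors, with DESeq2, with no filter and in 5 of the 6 fits that each left out a library. Rab24 was higher by 0.35, but 54.4% of its 31-base words occur in other genes, chiefly Prelid1 on the opposite strand.

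Of 14 tested Rabs listed for the endoplasmic reticulum, Golgi and lipid droplets, 4 were higher, 9 lower and 1 had no call, with a median log2 fold change of -0.36. That is 92.9% called, beside 73.5% of all genes tested, of which 35.7% were higher and 37.9% lower. With total counts or TPM, 2 were called higher. Rab1b, of transport from the endoplasmic reticulum to the Golgi, had 377, 289 and 273 CPM in adipocytes against 179, 133 and 139 CPM in preadipocytes, a log2 fold change of 1.06 (SE 0.15). By mean TPM it took rank 2 among the members in adipocytes, at 239 ± 37.1, and rank 5 in preadipocytes, at 165 ± 20.4 (SD, n = 3 each). Rab34, of the Golgi and primary cilium, had 202, 180 and 165 CPM in adipocytes against 102, 88.9 and 94.5 CPM in preadipocytes, a log2 fold change of 0.94 (SE 0.10). Rab1a and Rab6a, which serve early secretory transport and retrograde Golgi transport, were higher by 0.38 and 0.40 with TMM and at -0.11 and -0.14 on log2(TPM + 1). Of the 31-base words of Rab6a 21.3% occur in other genes, chiefly Mrpl48 on the opposite strand. Its value and the shares of the Rab6 pair are therefore less certain.

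Rab18, the Rab best known from lipid droplets, did not pass, with 124, 152 and 166 CPM in adipocytes against 160, 199 and 186 CPM in preadipocytes and overlapping groups. Its log2 fold change was -0.31 (SE 0.12, edgeR adjusted p = 0.0506). With the replicate numbers as a block it was called lower at the same -0.31 (adjusted p = 0.000281), and it was also called lower with total counts (-0.63) and on log2(TPM + 1) (-0.75). By mean TPM it took rank 8 among the members in adipocytes, at 125 ± 13.6, and rank 2 in preadipocytes, at 211 ± 21.01 (SD, n = 3 each).

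The deepest fitted fall of any member was that of Rab39b, a Golgi-related Rab known from neurons. It had 0.346, 0.187 and 0.0865 CPM in adipocytes against 3.60, 5.77 and 4.90 CPM in preadipocytes, a log2 fold change of -4.49 (SE 0.37, edgeR adjusted p = 4.91e-06). Of its 31-base words 17.2% also lie in a gene on the opposite strand. Rab36 was placed in the endoplasmic reticulum, Golgi and lipid droplet list, although it has been tied to lysosome positioning. It had 1.21, 1.17 and 1.34 CPM in adipocytes against 14.99, 13.8 and 13.8 CPM in preadipocytes, a log2 fold change of -3.51 (SE 0.13, edgeR adjusted p = 3.68e-08). Rab30, of the Golgi, fell by 2.27 (SE 0.17), with 3.76, 5.19 and 5.97 CPM in adipocytes against 21.1, 27.2 and 23.6 CPM in preadipocytes. Rab6b fell by 1.07 (SE 0.07), and its share of the Rab6 pair by TPM was 16.6 ± 3.51% in adipocytes and 33.2 ± 2.66% in preadipocytes (SD, n = 3 each). Rab43 fell by 1.22 (SE 0.10), but 74.8% of its 31-base words lie in an overlapping gene model, so its value is uncertain. Smaller falls were found for Rab2a (-0.34), Rab2b (-0.37, with 59.6% of its words shared with genes on the opposite strand), Rab12 (-0.39) and Rab33b (-0.35). The call for Rab33b was lost in 4 of the 6 fits that each left out a library. Of its words 22.6% occur in other genes, chiefly a gene model on the opposite strand.

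Of the members placed in no role list, Rab40b, part of an E3 ubiquitin ligase, had 6.79, 8.60 and 7.61 CPM in adipocytes against 2.50, 2.88 and 2.61 CPM in preadipocytes, a log2 fold change of 1.52 (SE 0.15). Rab44, a large Rab known from mast cells and osteoclasts, was higher at low counts, with 1.12, 1.07 and 0.779 CPM in adipocytes against 0.0391, 0.119 and 0.218 CPM in preadipocytes. Rab23, a negative regulator of hedgehog signalling, and Rab28, a Rab of the photoreceptor cilium, were lower by 0.51 and 0.41 on the log2 scale. Rab40c (0.32) and Rab42 (-0.01) did not pass, and Rab40c was called higher with a replicate block (edgeR adjusted p = 0.00035). It was also called higher with RLE factors, with DESeq2, with no filter and without preadipocyte library 1 or adipocyte library 3.

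The remaining syntaxins mostly serve endosomes and the early secretory pathway, and their changes were small. Stx12, of recycling endosomes, was higher by 0.61 (SE 0.09), Stx6, of the trans-Golgi network, by 0.51 (SE 0.10) and Stx2, of the plasma membrane, by 0.49 (SE 0.10), while on log2(TPM + 1) they stood at 0.06, 0.08 and -0.13 with no call. Stx18, of the endoplasmic reticulum, was called in opposite directions, at 0.23 with TMM (edgeR adjusted p = 0.0333) and -0.37 on log2(TPM + 1) (limma adjusted p = 0.00327), and 30.7% of its words are shared with other genes. Stx5a, the Golgi syntaxin, was lower by 0.50 (SE 0.08), a call that held under all 14 alternatives. Stx7, of late endosomes, was lower by 0.27 (SE 0.07), a call that was lost with no low-count filter (adjusted p = 0.104) and without adipocyte library 2 (adjusted p = 0.0806). Stx8 (0.11) and the autophagosome syntaxin Stx17 (0.18) did not pass. Stx17 was called higher with a replicate block (edgeR adjusted p = 0.00818), with RLE factors, with DESeq2 and without adipocyte library 1. Its transcripts had a mean length of 2958, 3027 and 3032 bases in adipocytes against 3764, 3914 and 3766 bases in preadipocytes. Snap29 (-0.10) and Snap47 (-0.05), SNAP-25-type proteins of intracellular membranes, did not pass with TMM and were called lower with total counts.

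The other 16 members had too few counts to be tested. Rab38, Rab9b, Stxbp5l and Vamp9 had no counts in any library. Rab15 had 30 counts over the adipocyte libraries against 2 over the preadipocyte libraries, 17.4-fold higher per library size (95% interval 4.81 to 144, counting error only). Rab3c had 1 count in adipocytes against 22 in preadipocytes, 19.0-fold lower (95% interval 3.41 to 750, counting error only), and Stx19 had 10 counts in adipocytes against 39 in preadipocytes. The remaining 9, Rab17, Rab19, Rab25, Rab26, Rab33a, Rab37, Rab39, Rab3b and Stxbp6, had at most 16 counts in either group.

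The genes that load Rabs, switch them off and read them were described from 8 further lists, beside a median of -0.06 for all genes. With TMM, 35.7% of all genes tested were higher and 37.9% lower, and the list counts stand beside these shares. Among 34 exchange factors tested, 14 were higher and 11 lower, with a median log2 fold change of 0.11. With total counts 9 were higher and 16 lower, and with TPM 4 were higher and 20 lower. Dennd2d, a DENN-domain exchange factor, had 93.8, 96.9 and 91.4 CPM in adipocytes against 0.196, 0.395 and 0.327 CPM in preadipocytes, a log2 fold change of 8.24 (SE 0.15, edgeR adjusted p = 1.7e-09). Rab3il1, an exchange factor for Rab3a and Rab8, had 15.9, 12.3 and 11.9 CPM in adipocytes against 117, 97.1 and 96.4 CPM in preadipocytes, a log2 fold change of -2.95 (SE 0.14).

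Among 33 GTPase-activating proteins, 11 were higher and 9 lower, with a median of 0.04. With total counts 8 were higher and 16 lower, and with TPM 6 were higher and 20 lower; 6 higher and 7 lower calls held under all 14 alternatives. Tbc1d4 (AS160), the Akt substrate that holds back GLUT4 vesicles through Rab10 in unstimulated adipocytes, had 77.0, 86.2 and 95.4 CPM in adipocytes against 19.5, 21.8 and 22.9 CPM in preadipocytes, a log2 fold change of 2.01 (SE 0.11). Its relative Tbc1d1, prominent in muscle, had 25.5, 25.9 and 24.7 CPM in adipocytes against 64.9, 72.2 and 69.3 CPM in preadipocytes, a log2 fold change of -1.44 (SE 0.08). Both calls held under all 14 alternatives, so this pair moved in opposite directions.

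Of 26 Rab effectors, 10 were higher and 13 lower, with a median of -0.32, and with TPM 6 were higher and 15 lower. The Rab27 effectors Mlph (melanophilin) and Sytl2 were the ends of this list, at 2.72 (SE 0.24) and -3.54 (SE 0.19), beside the low counts of Rab27a and Rab27b. In the exocyst, the tether of secretory vesicles at the plasma membrane, 3 of 9 genes were higher and 5 lower, with a median of -0.48. Exoc6 had 23.3, 26.5 and 25.4 CPM in adipocytes against 4.66, 4.42 and 4.76 CPM in preadipocytes, and Exoc4 had 87.5, 87.4 and 88.6 CPM in adipocytes against 254, 265 and 261 CPM in preadipocytes.

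Among 18 tested genes of GLUT4 vesicle cargo and regulators, 9 were higher and 2 lower, with a median of 0.36. The largest rise was that of Slc2a4 and the largest fall that of the vesicle receptor Lrp1, at -1.92 (SE 0.08). The lower calls numbered 4 with a replicate block and 7 with total counts or TPM. Trarg1, a GLUT4 vesicle protein, had 162, 149 and 176 CPM in adipocytes against 1.37, 1.15 and 1.27 CPM in preadipocytes. Ralgapa2, a subunit of the Ral GTPase-activating complex, was higher by 3.68 on the log2 scale (SE 0.10). Among 8 genes of Rab prenylation and recycling, 5 were higher and 1 lower with TMM, with a median of 0.31, and none was higher with total counts or TPM. Without preadipocyte library 2 or 3 there were 3 higher calls, and without either of these or adipocyte library 2 there was no lower call. The Rab escort protein genes Chml and Chm stood at 0.83 and -0.48. Of the 12 SNAREs outside the numbered families, 5 were higher and 2 lower, with a median of 0.03. Gosr1, a Golgi SNARE, stood at 0.95 and Bet1l, another, at -0.30. The lower calls numbered 1 without preadipocyte library 1 and 0 without preadipocyte library 2 or adipocyte library 2 or 3, and 7 with total counts or TPM, where the higher calls numbered 2 and 1. Of 9 genes for SNARE disassembly and other Sec1/Munc18 proteins, 4 were higher and 2 lower, with a median of 0.15 and with Vps33a, of lysosome tethering complexes, at 0.81 and Napb, the neuronal form of the SNAP adaptor of NSF, at -0.73. With total counts 2 of these 9 were higher and 4 lower, and with TPM 1 was higher and 6 lower.

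**Figure D5:**
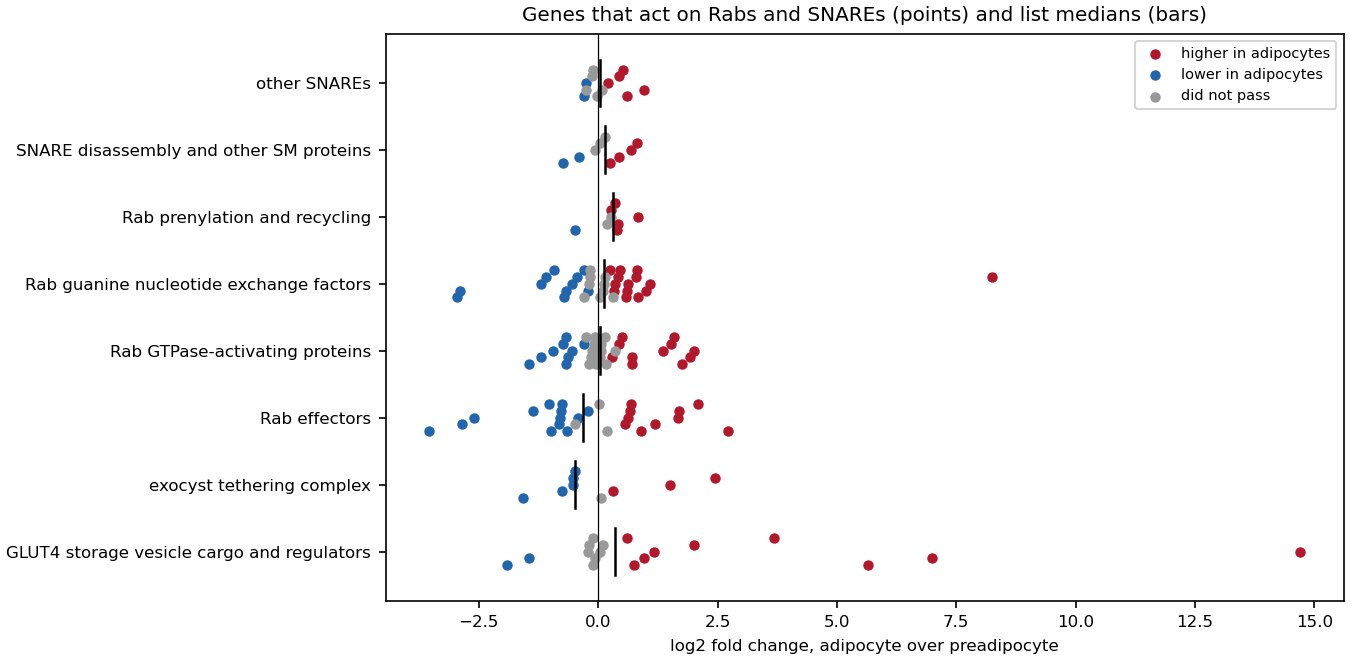
Log2 fold change, adipocyte over preadipocyte (horizontal axis), for each tested gene of 8 lists that act on or with Rabs and SNAREs, with a black bar at each list median. Red points were higher and blue points lower in adipocytes with TMM, grey points did not pass, and with total counts or TPM the points lie further to the left; Slc2a4, whose position depends on the prior count because it had 1 count in preadipocytes, and Dennd2d at 8.24 lie far to the right.

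Library 1 stood at the same end of its group in both conditions for many members. It was the highest of its 3 in both groups for 26 of the 76 tested members and the lowest for another 26, 34.2% each, beside 31.7% and 28.7% of all genes. Rab1b (377 against 289 and 273 CPM within adipocytes) and Rab5a (86.7 against 118 and 137 CPM within adipocytes) are examples of each. Its part in the results was not tested beyond the fits that left a library out and those with a replicate block.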

How the data were processed

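RNA-seq gene tables of 3 adipocyte and 3 preadipocyte libraries were analysed. Estimated counts (RSEM expected counts), TPM and transcript lengths per gene were made by the authors, per the file headers; RSEM, Bowtie, Bowtie2 and DESeq2 and the builds GRCm38 and mm10 are named in the submitters' processing notes, with no version or role. Of 54752 gene IDs, 54723 matched GENCODE M21. The deposited expected counts were rounded, scaled by TMM (factors 0.88 to 0.902 in adipocytes and 1.11 to 1.13 in preadipocytes) and filtered with filterByExpr, and 14726 genes were tested with the quasi-likelihood test of edgeR 4.0.16 (R 4.3.3) with Benjamini-Hochberg adjustment over all of them; the fit was checked on simulated counts. The authors' TPM values were used for levels between genes and, with limma 3.58.1 on log2(TPM + 1) and log2(TPM + 0.1), as alternatives. DESeq2 1.42.0, RLE and upper-quartile factors, total counts, no filter, a replicate block and leaving out each library were the others. Intervals for low counts are exact Poisson intervals at 95% and floors are 3 counts over a group; both cover counting error only.

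Same-numbered libraries deviated together from their group means (correlations of 0.659, 0.301 and 0.265 for numbers 1, 2 and 3). Deviations within a group cancel, so a shift shared by the libraries numbered 1 can by itself raise all 3 values. The correlations therefore cannot show whether numbers 2 and 3 pair, and different-numbered libraries were not compared. The numbers come from the titles. The main test was unpaired, and pairing by number entered only as the replicate block. Named genes were members with known roles in GLUT4 traffic or lipid droplets, the 10 largest rises and falls that reached 1 CPM, tested members without a call, the 5 most abundant members per group and the extremes of each supporting list; other members are named to account for them, and 2 tested members are counted but not reported here. Members, role lists, marker lists and tests were chosen with earlier results of these data known. Shared sequence is the percentage of a gene's 31-base words that occur in other genes of the annotation.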

Additional observations from a re-analysis of the deposited data

How the results depend on the processing

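Of the 27 higher and 33 lower member calls, 11 and 28 held under all 14 alternatives, a count that was not made over all genes. Members called higher numbered 15 on total counts and 11 under limma, with either TPM pseudocount (1 or 0.1); all genes called higher numbered 5252 with TMM and 3266 and 3248 under limma at pseudocounts of 1 and 0.1. Leaving out a library gave 24 to 29 higher and 29 to 34 lower members, and 4929 to 5466 higher and 5120 to 5606 lower genes. With total counts the sign of the fitted value changed for Stx16 (-0.30), Rab7 (-0.057), Stx18 (-0.10), Stx4a (-0.24), Vamp2 (-0.30) and Rab8a (-0.29). Of these, Rab7 and Stx18 were called higher with TMM and had no call with total counts. The others had no call with TMM and were called lower with total counts. On log2(TPM + 1) the sign changed for Stx18 (-0.37), Stx4a (-0.46), Stx16 (-0.48), Stx2 (-0.13), Rab8a (-0.49), Rab10 (-0.018), Vamp2 (-0.48), Rab6a (-0.14), Rab5c (-0.078), Rab5a (-0.0019), Rab35 (-0.070), Rab24 (-0.17), Rab21 (-0.40), Rab1a (-0.11) and Rab7 (-0.19), and on log2(TPM + 0.1) for the same genes in that order at -0.38, -0.46, -0.50, -0.13, -0.50, -0.018, -0.49, -0.15, -0.079, -0.002223, -0.071, -0.17, -0.42, -0.11 and -0.19. Among these, Stx18 alone was called in both directions. Stx4a, Stx16, Rab8a, Vamp2 and Rab21 had no call with TMM and were called lower with TPM. The others were called higher with TMM and had no call with TPM. These settings shift the median of all genes downward; beyond that the cause was not tested. The replicate block added calls for Rab18, Stx17, Rab11b and Rab40c and changed no other member call. Each of these genes was also called under at least 1 other alternative. At these depths, members below about 1 CPM rest on few counts.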
